A study of Mus musculus with 12 samples.

Results

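The microRNAs miR-10 and miR-196 were examined in epididymal fat, a visceral depot beside the epididymis, of male C57BL/6J mice. Every assay whose name carried miR-10a, miR-10b, miR-196a or miR-196b was taken, whichever arm of the hairpin it measured. This found 6 of the 504 microRNA assays: mmu-miR-10a-5p, mmu-miR-10b-5p, mmu-miR-196a-5p, mmu-miR-196b-5p, mmu-miR-196a-1-3p and mmu-miR-196b-3p. All 6 passed the filter on late cycles, and 5 of them were measured in every pool; miR-196a-1-3p had no value in pool WL 3.

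MicroRNAs were measured by quantitative RT-PCR in 12 pools of RNA, 3 per group, each group drawing on 12 mice. All parents ate a standard breeding diet until mating. The control group (CD) then met only a purified diet (10% of energy as fat), and the other groups met a matching high-fat diet (45%). In the group UT this diet reached the offspring in utero only, through the dam, and in UL from mating until weaning. In WL it lasted from mating until the end at 23 weeks, so only WL still met the high-fat diet then. All mice were wild-type. The sources used here do not give which litters entered which pool, so the p-values measure the spread between pools and would be too small if pools shared litters.

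The measured value was the threshold cycle (Ct), the PCR cycle at which product becomes detectable, so that a lower Ct stands for more template. For each pool, Ct was subtracted from the mean Ct of the 466 microRNAs that had a value in all 12 pools. This relative level is in cycles on the log2 scale, where 1 cycle is a 2-fold step if the PCR doubles its product each cycle. In bulk tissue, fewer cells of a type and less RNA per cell cannot be told apart. The median Ct of a pool lay between 24.59 (UT 2) and 25.26 (UT 3), and all 6 assays of an adipocyte list were measured, with a mean relative level per pool of 4.09 to 4.96. The marker lists do not separate fat depots from each other, so the depot itself was not checked.

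Both families lie inside the Hox clusters, the rows of transcription factor genes that set position along the body axis. miR-10 genes lie near the Hox4 genes and miR-196 genes between the Hox9 and Hox10 positions, and both families are known to repress Hox transcripts; miR-196 pairs with the Hoxb8 transcript almost completely and directs its cleavage. Fat depots differ in which Hox genes they express, and miR-196a is known to favour brown-like fat cells in white depots by repressing Hoxc8. A hairpin gives a 5p and a 3p arm, of which one is usually kept as the guide strand and the other, the passenger, is mostly degraded.

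The mature sequences (RefSeq, build GRCm38.p6) are shown first because they decide which assays can be read as separate genes. The seed, bases 2 to 8 counted from the 5′ end, through which a microRNA recognises its targets, is in capitals. All 6 assays matched a RefSeq entry by name.
miR-10a-5p: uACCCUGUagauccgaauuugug
miR-10b-5p: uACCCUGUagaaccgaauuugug
miR-196a-5p: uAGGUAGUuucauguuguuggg
miR-196b-5p: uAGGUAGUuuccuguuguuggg
miR-196a-1-3p: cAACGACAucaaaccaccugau
miR-196b-3p: uCGACAGCacgacacugccuuc

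The miR-10 guide strands share their seed and differ by a single base over 23, U12A, with positions counted from the 5′ end and miR-10a-5p first. The miR-196 guide strands likewise share a seed and differ by a single base over 22, A12C. The sources used here do not say how well the assays tell such neighbours apart, so cross-detection within each pair was not tested. The 3p arms share no seed with each other or with the guides. The 7 letters of the miR-196 seed also occur in 8 other measured microRNAs, let-7a, b, c, d, f, g and i (all 5p) and miR-98-5p. There they lie at positions 3 to 9, overlapping the seed of those microRNAs but shifted from it by a single base. let-7a-5p is shown with those letters in capitals.
let-7a-5p: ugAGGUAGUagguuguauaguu
The miR-10 seed letters occur in only 1 other measured microRNA with a matched sequence, miR-706, at positions 7 to 13. Of 503 different assay names, 392 matched a RefSeq mature sequence, so these searches cover those 392.

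The assay of miR-196a-5p reads 2 genes at once, as the hairpins show (measured arms in capitals, RefSeq, build GRCm38.p6).
Mir196a-1: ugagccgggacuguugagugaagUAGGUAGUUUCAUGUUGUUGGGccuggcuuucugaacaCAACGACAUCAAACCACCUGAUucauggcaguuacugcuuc
Mir196a-2: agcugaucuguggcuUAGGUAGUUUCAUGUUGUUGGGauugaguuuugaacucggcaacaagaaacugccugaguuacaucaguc
Mir196a-1 lies at chr11:96265164-96265265 on the plus strand, within the span of the noncoding gene Gm51876 between Hoxb13 and Hoxb9. Mir196a-2 lies at chr15:102973350-102973434 on the plus strand, between Hoxc10 and Hoxc9 and within no other gene of the table. Their 5p arms are identical, so only miR-196a-1-3p belongs to one of these loci alone. Mir196b lies at chr6:52230081-52230165 on the minus strand, within the noncoding gene Gm52902 between Hoxa9 and Hoxa10. Mir10a lies at chr11:96317165-96317274 on the plus strand within the span of Hoxb3, and Mir10b at chr2:74726070-74726137 on the plus strand within the spans of Hoxd3 and Hoxd4. These are gene spans; exon and intron boundaries were not used here.

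The guide strands were detected early and the passenger strands late. miR-10b-5p came first, with a mean relative level of 6.07 over the 12 pools and rank 28 of the 504 microRNAs. miR-196a-5p followed at 4.65 (rank 63), miR-10a-5p at 4.21 (rank 73) and miR-196b-5p at 2.54 (rank 126). The 3p arms stood below the average microRNA, miR-196a-1-3p at -3.11 over 11 pools (rank 396) and miR-196b-3p at -5.50 (rank 463). Because the efficiency of each assay is unknown, this orders the assays by Ct and not by amount. Neighbours in the order were compared within pools. miR-10b-5p stood above miR-196a-5p in 12 of 12 pools, by 1.42 ± 0.50 cycles (SD over pools). miR-196a-5p stood above miR-10a-5p in only 7 of 12 pools, with a mean difference of 0.44 ± 0.83 cycles that is smaller than its spread. miR-10a-5p stood above miR-196b-5p in 11 of 12 pools, and both remaining steps down to the 3p arms held in 11 of 11.

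**Figure D1:**
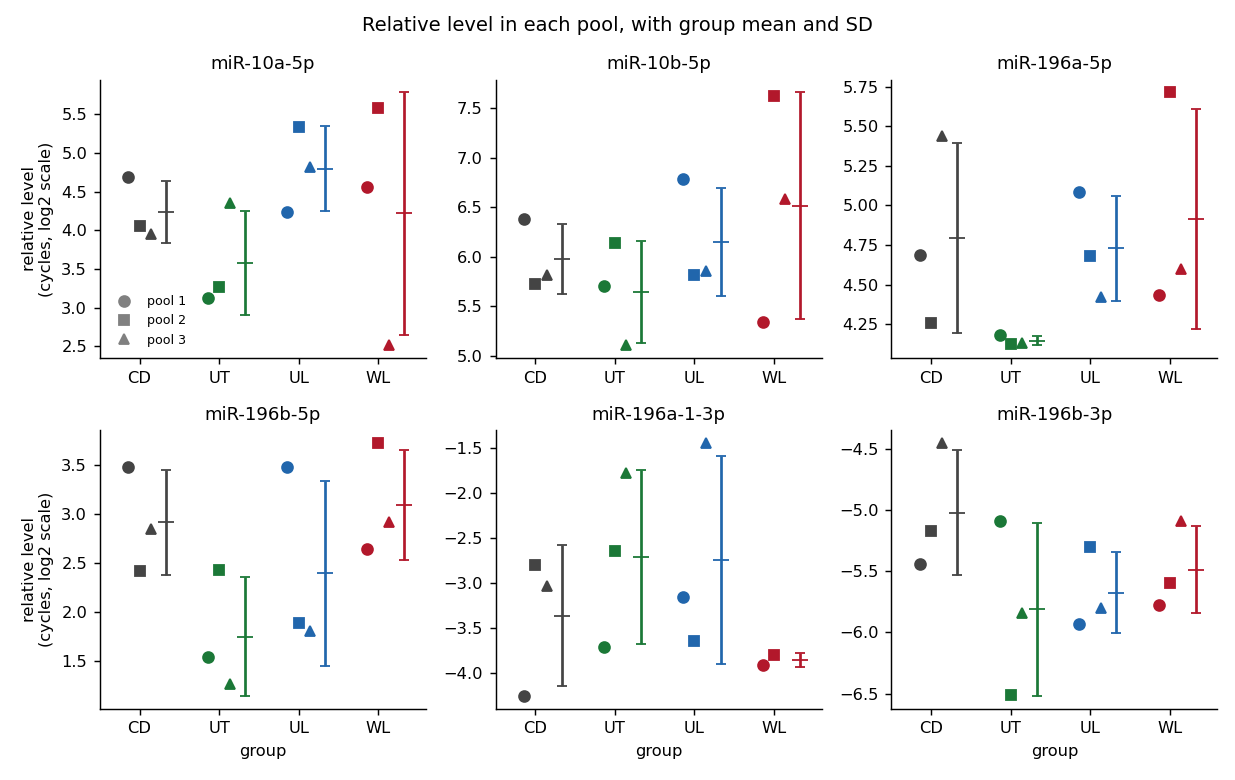
Relative level (cycles, log2 scale) of each of the 6 assays in each pool, by group; marker shape gives the pool number and the bars the group mean with SD (n = 3, but 2 for miR-196a-1-3p in WL). The UT pools of miR-196a-5p sit together below all CD pools, and miR-10a-5p spreads from 2.51 to 5.58 within WL; each panel has its own vertical scale.

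No member of either family changed past the threshold in any comparison. In limma's test with Benjamini-Hochberg adjustment over the 504 microRNAs, 0 of 6 passed an adjusted p of 0.05 in UT against CD, where 1.39% of all microRNAs passed. The count was also 0 of 6 in UL against CD (background 0.595%) and in WL against CD (0.595%). Among the high-fat groups it was 0 of 6 in UL against UT, WL against UL and WL against UT, where the background was 0.0% each time, and the F test over the 4 groups gave 0 of 6 against 0.397%. At an unadjusted p under 0.05, limma gave 1 of 6 in UT against CD (background 10.1%) and 1 of 6 in WL against UT (15.7%). It gave 0 of 6 in UL against CD (2.78%), WL against CD (7.14%), UL against UT (7.94%), WL against UL (5.36%) and the F test (9.92%). With 6 assays 1 is the smallest count above 0, so these counts lie near the background.

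**Figure D2:**
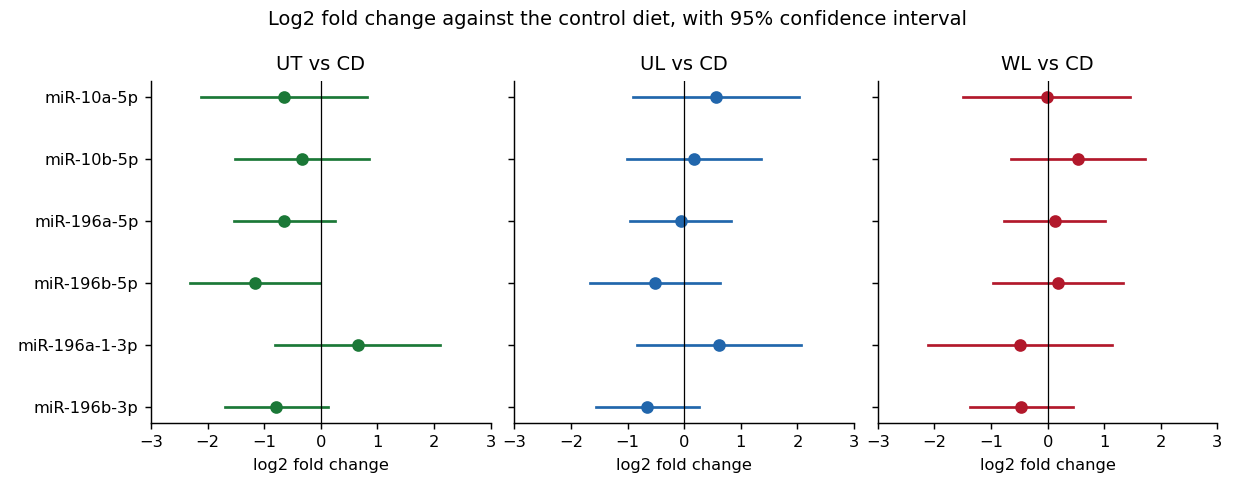
Log2 fold change of each assay against the control diet for UT, UL and WL (points) with 95% confidence interval (lines) from limma; the vertical line marks no difference. Every interval includes 0 except that of miR-196b-5p in UT, which runs from -2.31 to -0.02, and its adjusted p is 0.473.

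miR-196b-5p, the guide from the Hoxa cluster, had the lowest p of the 6. Its relative levels were 3.48, 2.41 and 2.85 in CD, 1.55, 2.43 and 1.27 in UT, 3.48, 1.89 and 1.81 in UL, and 2.65, 3.72 and 2.92 in WL. UT and CD touched only where UT 2 stood just above CD 2, and all 3 WL pools lay above all 3 UT pools. The group mean (± SD, n = 3) was 1.75 ± 0.61 in UT, 2.91 ± 0.54 in CD and 3.10 ± 0.56 in WL. UT differed from CD by -1.16 on the log2 scale (SE 0.52, limma adjusted p = 0.473, 0.0469 before adjustment). WL differed from UT by 1.34 (SE 0.52, limma adjusted p = 0.262, 0.0251 before adjustment). UL, at 2.40 ± 0.94, differed from CD by -0.52 (SE 0.52, limma adjusted p = 0.995), and WL differed from CD by 0.18 (SE 0.52, limma adjusted p = 0.978). The UL value was -1.06 without UL 1 and -0.23 without UL 3. The value in UT against CD stayed below 0 under all 27 other settings tried, between -1.50 and -0.42. Limma adjusted p ran from 0.295 to 0.815. Several of these settings, such as the other filters and leaving out a UL or WL pool, leave this value nearly unchanged by construction. The count of 27 is therefore not a count of separate checks.

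miR-196a-5p, read from the Hoxb and Hoxc clusters together, had UT relative levels that were nearly identical to each other. They were 4.18, 4.12 and 4.13, with 4.69, 4.25 and 5.44 in CD, 5.08, 4.68 and 4.42 in UL, and 4.44, 5.71 and 4.60 in WL. All 3 UT pools therefore lay below all 9 others on this scale. The share of all microRNAs with such a split was not counted. Between UT and CD alone, 14.0% of microRNAs had ranges that did not overlap. The UT mean of 4.14 ± 0.0295 against 4.79 ± 0.60 in CD gave a log2 fold change of -0.65 (SE 0.41, 95% interval -1.54 to 0.24, limma adjusted p = 0.613). Without CD 3 it was -0.33, and scaled to the small nucleolar RNA RNU-43 it was 0.09. Before scaling, the Ct values of UT were 20.45, 20.45 and 20.93, and CD 2 at 20.54 lay among them. The closeness of the UT pools and their distance from CD therefore depend on the scaling. UL differed from CD by -0.06 (SE 0.41) and WL by 0.12 (SE 0.41), with limma adjusted p of 0.995 and 0.978, and WL differed from UT by 0.77 (SE 0.41, limma adjusted p = 0.374).

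Ranges that did not overlap were counted over the 6 assays. UT and CD did not overlap for 1 of 6 (miR-196a-5p), where 14.0% of the 480 microRNAs measured in all 6 pools did not. WL and CD overlapped for all 6 (background 11.0% without overlap), as did UL and CD (7.88%). WL and UT did not overlap for miR-196a-5p and miR-196b-5p, 2 of the 5 assays measured in every pool, against a background of 19.3%, and both WL values of miR-196a-1-3p lay below its 3 UT values.

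The epithelial markers also stood low in UT, so their values are given beside the miR-196 guides. All 7 listed markers (the miR-200 family, miR-205-5p and miR-203-3p) were measured, 0 of 7 had a log2 fold change above 0 in UT against CD, where 48.8% of all 504 microRNAs had one, and their median was -2.29. None of the 7 passed limma's adjusted threshold (background 1.39%), and 4 of 7 had an unadjusted p under 0.05 (10.1%). Their mean level per pool was lowest in UT 1 (0.35) and UT 3 (0.56), the same pools in which miR-196b-5p was lowest. It was highest in WL 2 (3.96), where miR-196b-5p, miR-196a-5p, miR-10a-5p and miR-10b-5p were all highest. miR-196a-5p was lowest in UT 2 (4.12), where the epithelial mean was 2.11, above that in CD 2 (1.64) and WL 1 (1.95). The summed level of the epithelial markers, on the log2 scale, ranged from 3.24 to 5.30 in UT and 4.53 to 7.21 in CD. It ranged from 5.28 to 6.52 in UL and 4.98 to 7.42 in WL. miR-203-3p was nearly flat (-0.02), and no marker was without signal in any pool. In UT against CD the testis and epididymis list stood higher, with 8 of its 9 measured assays above 0, a median of 0.87, 2 of 9 with an unadjusted limma p under 0.05 and 0 past the adjusted threshold. Its summed level overlapped between UT (4.10 to 5.70) and CD (4.82 to 5.88). The stromal list had a median of -0.53 and the leukocyte list -0.81, and the endothelial arms ran opposite ways, with -1.19 for miR-126a-3p and 1.36 for miR-126a-5p. The adipocyte list had a median of -0.29, with 1 of 6 above 0. The median was -0.07 for skeletal muscle and 0.18 for the erythroid list, and the liver marker stood at -0.42. The part of other cell types in the miR-196 levels was not tested.

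miR-10b-5p, from the Hoxd cluster, was the earliest of the 6 in every pool. Its levels were 6.38, 5.72 and 5.82 in CD, 5.70, 6.13 and 5.10 in UT, 6.78, 5.81 and 5.85 in UL, and 5.34, 7.62 and 6.58 in WL. WL held both the highest pool (WL 2) and the second-lowest (WL 1), and all 4 groups overlapped. The log2 fold change against CD was -0.33 in UT, 0.18 in UL and 0.54 in WL (SE 0.54 each; limma adjusted p = 0.886, 0.995 and 0.956). The WL value was -0.01 without WL 2 and 1.13 without WL 1, the UT value -0.06 without UT 3 and the UL value -0.14 without UL 1.

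miR-10a-5p, from the Hoxb cluster, was the most variable guide. Its levels were 4.69, 4.05 and 3.96 in CD, 3.12, 3.26 and 4.35 in UT, 4.23, 5.33 and 4.81 in UL, and 4.56, 5.58 and 2.51 in WL. WL held both the highest and the lowest of the 12 pools, and the within-group SD of 0.92 exceeded that of 81.7% of all microRNAs (median 0.53). The log2 fold change was -0.66 in UT, 0.56 in UL and -0.02 in WL (SE 0.67 each; limma adjusted p = 0.810, 0.995 and 0.995). For WL the interval ran from 2.80-fold lower to 2.73-fold higher, and the value turned on single pools: it was 0.85 without WL 3, -0.70 without WL 2 and 0.21 without CD 1. The UT value was -1.04 without UT 3 and the UL value 0.29 without UL 2. UL differed from UT by 1.21 (SE 0.67, limma adjusted p = 0.686).

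The passenger strands gave no call either. miR-196b-3p was -5.44, -5.18 and -4.45 in CD, -5.09, -6.51 and -5.84 in UT, -5.93, -5.30 and -5.80 in UL, and -5.77, -5.60 and -5.09 in WL. Its mean was highest in CD, and the log2 fold change against CD was -0.79 in UT, -0.65 in UL and -0.46 in WL (SE 0.41 each; limma adjusted p = 0.582, 0.995 and 0.956). The UT value was -0.44 without UT 2 and -0.51 without CD 3, and without CD 3 the UL value was -0.37 and the WL value -0.18. miR-196a-1-3p was -4.25, -2.80 and -3.03 in CD, -3.71, -2.65 and -1.78 in UT, -3.16, -3.64 and -1.45 in UL, and -3.90 and -3.80 in the WL pools with a value. Its log2 fold change against CD was 0.65 in UT and 0.61 in UL (SE 0.66 each) and -0.49 in WL (SE 0.73, 2 pools), with limma adjusted p of 0.810, 0.995 and 0.978. The UT value was 0.18 without UT 3 and 0.20 without CD 1, the UL value was -0.04 without UL 3, and the WL value was -0.93 without CD 1 and -0.21 without CD 2. It was the only member with a value above 0 in UT, where the guide miR-196a-5p stood at -0.65.

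Over the 6 assays, the median log2 fold change was -0.65 in UT, 0.06 in UL and 0.05 in WL, while the medians over all 504 microRNAs were -0.01, -0.07 and -0.06. The UT value depends on the scaling. RNU-43, a small nucleolar RNA, itself came latest in UT 3. Scaled to it, the median of all microRNAs in UT against CD moved to 0.73 and that of the 6 assays to 0.09. This scaling shifts all assays of a pool by the same amount. It therefore cannot test where the members stand relative to the median of all. On that scaling miR-196b-5p kept a value below 0 (-0.42), while miR-10a-5p (0.08), miR-10b-5p (0.41) and miR-196a-5p (0.09) turned above 0.

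Differences between assays within a pool do not depend on the scaling. miR-10a-5p minus miR-10b-5p was -1.68, -1.67 and -1.86 cycles in CD, -2.58, -2.87 and -0.75 in UT, -2.55, -0.48 and -1.04 in UL, and -0.78, -2.04 and -4.07 in WL. The CD pools agreed to within an SD of 0.11, while the SD was 1.15 in UT, 1.07 in UL and 1.66 in WL; this difference in spread was not tested. The group means did not differ beyond the spread in an exact permutation test of the F statistic over 369600 assignments (p = 0.775), nor the 9 high-fat pools from the 3 CD pools (difference -0.17, two-sided exact permutation p = 0.809). miR-196a-5p minus miR-196b-5p was steadier, at 2.11 ± 0.56 cycles (SD) over the 12 pools, and above 0 in 12 of 12. It lay between 1.21 in CD 1 and 2.86 in UT 3. No group difference beyond the spread was found (exact permutation p = 0.478 over 4 groups and 0.486 for high-fat against CD).

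The guide strand was detected far earlier than the passenger strand in every pool with both values. Assay efficiencies are unknown, so these gaps are in Ct and not in amount. miR-196a-5p also reads Mir196a-2, so its gap is not that of a single hairpin. miR-196b-5p exceeded miR-196b-3p by 8.04 ± 0.94 cycles (SD) over 12 pools, from 6.64 in UT 1 to 9.41 in UL 1. miR-196a-5p exceeded miR-196a-1-3p by 7.76 ± 1.20 cycles over 11 pools, from 5.87 in UL 3 to 9.51 in WL 2. Neither difference varied with group (exact permutation p = 0.652 and 0.269 over 4 groups). Over the 4 differences tested, the adjusted p was 0.775 for each group test and 0.85 for each test of high-fat against CD. The smallest p that 3 of 12 pools allow is 0.00455, and 0.00606 with 11 pools.

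Across pools, the highest correlations were among the guides other than miR-10a-5p. Of 15 pairs of assays, 1 passed an adjusted p of 0.05 by Pearson r and 2 by Spearman rho. The pair that passed both was miR-10b-5p and miR-196b-5p, from the Hoxd and Hoxa clusters, with r = 0.80 (permutation p = 0.00116, adjusted 0.0174) and Spearman rho = 0.81 (permutation p = 0.00231, adjusted 0.0333). Without UL 1 and WL 2, the pools farthest from the median of miR-10b-5p, r was 0.66, and on deviations from the group means it was 0.83. With RNU-43 scaling r was 0.72 and the permutation p adjusted over the 15 pairs was 0.148. The paralogs miR-196a-5p and miR-196b-5p had r = 0.72 (permutation p = 0.00773, adjusted 0.058) and rho = 0.78 (permutation p = 0.00444, adjusted 0.0333). Without CD 3 and WL 2 their r was 0.70. On deviations from the group means it was 0.57, with a permutation p of 0.266 adjusted over the 15 pairs. With RNU-43 scaling it was also 0.57, with a permutation p of 0.201 adjusted likewise. For miR-10b-5p and miR-196a-5p, r = 0.69 (permutation p = 0.0125, adjusted 0.0627) and rho = 0.60 (permutation p = 0.0424, adjusted 0.212), but without UL 1 and WL 2 r fell to 0.26, so that relation rests on those pools. Among all 108345 pairs of the 466 microRNAs, 0.971% had an r as high as that of miR-10b-5p and miR-196b-5p, and 2.20% one as high as that of the miR-196 paralogs. All pools share one scaling step, which can move assays together.

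The miR-10 pair, which like the miR-196 pair differs by 1 base and lies in different clusters, correlated weakly: miR-10a-5p and miR-10b-5p had r = 0.16 (permutation p = 0.623, adjusted 0.779) and rho = 0.11 (permutation p = 0.731, adjusted 0.840). Without WL 2 and WL 3 their r was -0.04. The arms of the Mir196b hairpin did not move together either, with r = 0.04 for miR-196b-5p and miR-196b-3p (permutation p = 0.914, adjusted 0.914) and rho = 0.03 (permutation p = 0.920, adjusted 0.920). Without CD 3 and UT 2 that r was -0.10. For miR-196a-5p and miR-196a-1-3p, r was -0.36 over 11 pools (permutation p = 0.279, adjusted 0.523) and rho was -0.51 (permutation p = 0.116, adjusted 0.349). Without UT 3 and UL 3 their r was -0.17. Because miR-196a-5p also reads Mir196a-2, this pair cannot show how the arms of a single hairpin relate.

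**Figure D3:**
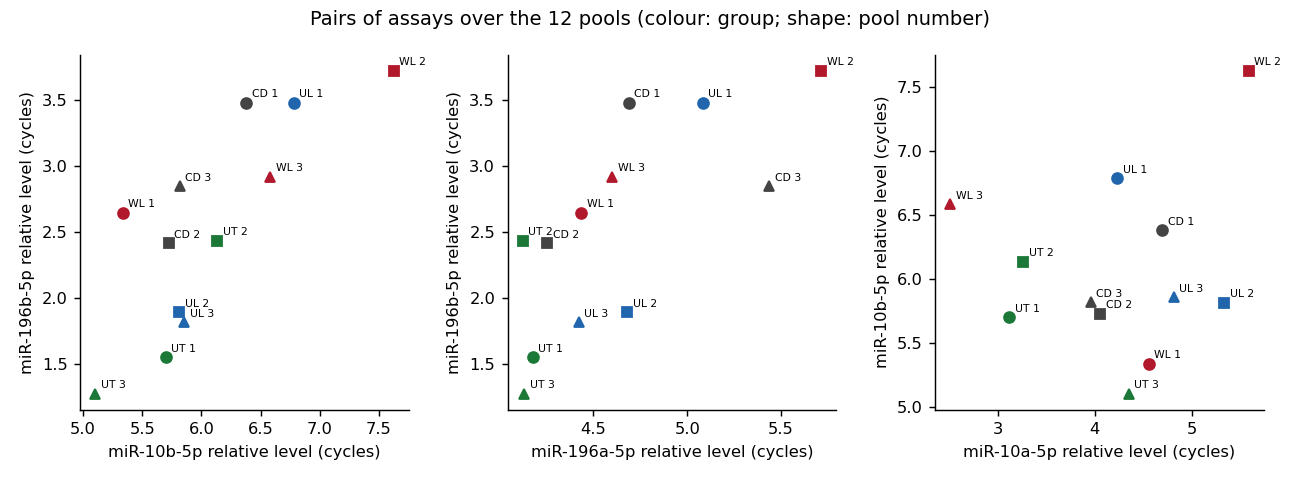
Relative levels (cycles) of 3 pairs of assays, each point 1 of the 12 pools, with colour for the group and shape for the pool number. miR-196b-5p rises with miR-10b-5p (r = 0.80) and with miR-196a-5p (r = 0.72), while miR-10a-5p and miR-10b-5p show no such relation (r = 0.16), with WL 3 far to the left.

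Assays of like accession number varied together over the pools, some of the 6 members included. When the assays were sorted by their miRBase accession number, next assays had a median r of 0.50 over the pools (495 pairs), against -0.01 for all 122760 pairs. miR-10a-5p had a median r of 0.73 with its 8 nearest assays, above 0.5 with 6 of them, and 5 of those 8 were lowest in WL 3, as miR-10a-5p was. Its r was 0.93 with miR-17-5p and 0.90 with miR-107-3p, the assays directly beside it, but -0.51 with miR-19a-3p and -0.33 with miR-25-3p, at 3 and 4 places. With the neighbours subtracted, an alternative chosen after the data were seen, the UL value of miR-10a-5p turned from 0.56 to -0.21. miR-196a-1-3p had a median r of 0.77 with its 8 nearest assays over 11 pools, from 0.31 with miR-30d-3p to 0.95 with let-7e-3p, and 5 of the 8 had no value in WL 3 either; the missing value in WL 3 belonged to a run of 8 assays in this order without a value there, of 9 such microRNAs in all. The median r of the other members with their nearest assays was 0.46 for miR-196a-5p, 0.26 for miR-196b-3p, 0.19 for miR-10b-5p and 0.05 for miR-196b-5p. After subtraction the UT value of miR-196b-5p was -1.13, close to -1.16 before it, but that of miR-196a-5p was -0.13 in place of -0.65. The WL value of miR-10b-5p was 1.10 in place of 0.54 (limma adjusted p = 0.511, 0.0195 before adjustment). The UT value of miR-196b-3p was -0.85 in place of -0.79 (limma adjusted p = 0.312, 0.0161 before adjustment). The sources used here do not say what links assays of like accession, and its part in these levels was not tested further.

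**Figure D4:**
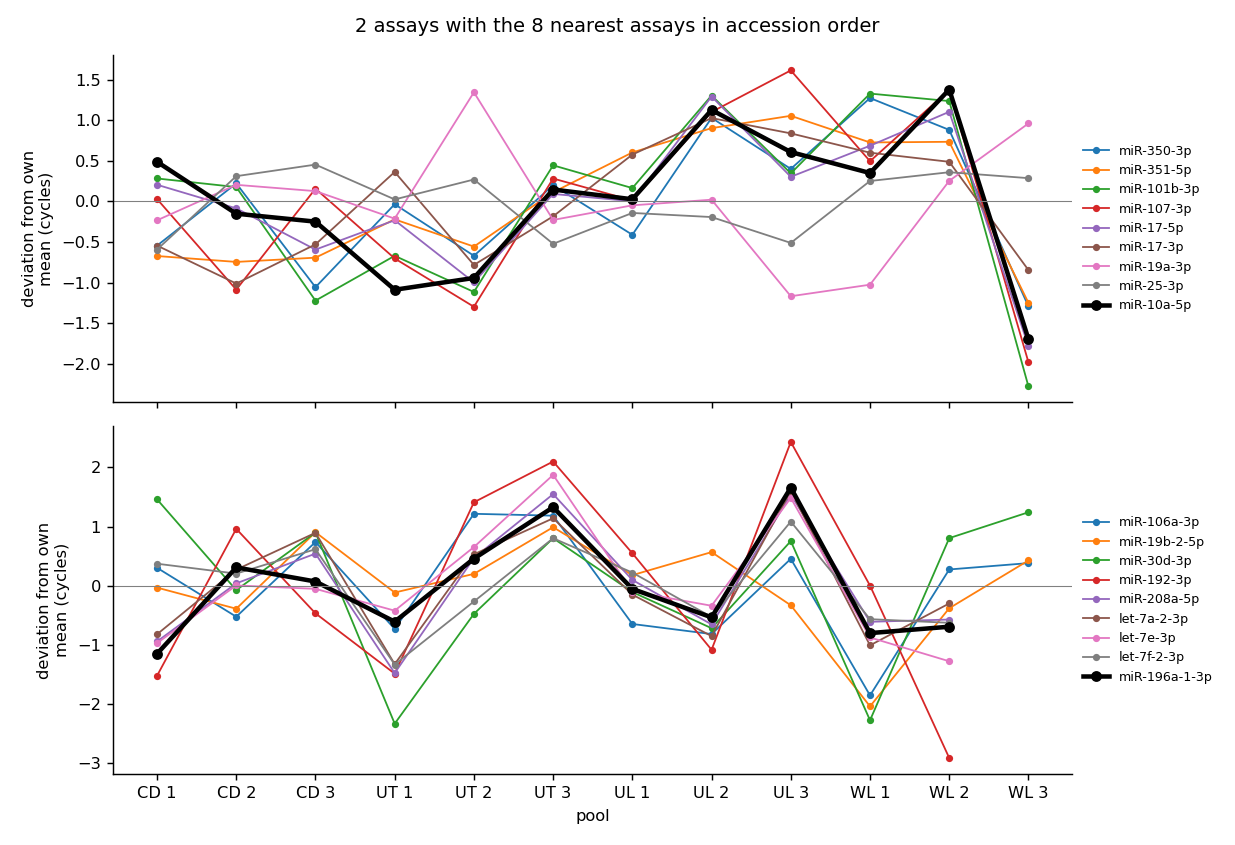
Deviation of each assay from its own mean (cycles) in each of the 12 pools, for miR-10a-5p (top, black) and miR-196a-1-3p (bottom, black) with the 8 nearest assays to each in accession order. Of the 8 at the top, 5 are lowest in WL 3, while miR-19a-3p and miR-25-3p stand above their means there; of the 8 at the bottom, 5 have no value in WL 3.

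The microRNAs whose pattern over the 12 pools was most like a member's were sought among those measured in every pool, for the 5 members measured in every pool (miR-196a-1-3p was left out). For miR-10b-5p they were miR-489 (r = 0.85), miR-696 (0.84) and the H19-derived miR-675-5p (0.83). For miR-196b-5p they were miR-337-3p (0.91), miR-30d-5p (0.87) and miR-143-3p (0.86), the last a microRNA of smooth muscle and stromal cells. For miR-196a-5p they were miR-696 (0.80), the epithelial miR-205-5p (0.75) and miR-204-5p (0.74). For miR-10a-5p they were miR-29c-3p (0.93) and the neighbours miR-17-5p and miR-107-3p named above. For miR-196b-3p they were miR-381-5p (0.88), miR-181b-2-3p (0.78) and miR-383-3p (0.76), all within 5 places of it in accession order. These r values are descriptions over 12 pools that share their scaling.

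Related microRNAs gave no call. miR-615-3p, from within the Hoxc5 gene, differed from CD by -0.26 in UT, -0.06 in UL and -0.10 in WL (SE 0.38 each; limma adjusted p = 0.867, 0.995 and 0.978). Of the miR-99 and miR-100 group, which belongs to the miR-10 superfamily by sequence but has a different seed, 0 of 3 passed: in UT, miR-99a-5p stood at -0.29, miR-99b-5p at 0.77 and miR-100-5p at -0.31. The sequence of miR-99a-5p, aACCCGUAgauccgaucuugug with its seed in capitals, differs from miR-10 within that seed. Of let-7 and miR-98, 0 of 9 passed, with medians of -0.25 in UT (0 of 9 above 0), -0.12 in UL (1 of 9) and 0.13 in WL (8 of 9). Of all microRNAs, 48.8% lay above 0 in UT, 43.7% in UL and 43.5% in WL. The adjusted threshold was passed by 1.39% of all in UT and 0.595% each in UL and WL.

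Lists of microRNAs that promote or oppose the browning of white fat, a process in which miR-196a is known to act, were also read. Of the promoting list, 13 of 14 entries were measured and 0 passed limma's adjusted threshold in any group against CD. Over all microRNAs 1.39% passed in UT and 0.595% each in UL and WL. At an unadjusted limma p under 0.05 there was 1 in WL (background 7.14%) and 0 in UT (10.1%) and UL (2.78%). The median of the promoting list was -0.20 in UT, -0.04 in UL and 0.01 in WL. Of the 9 opposing microRNAs 0 passed, also at an unadjusted p under 0.05, with medians of -0.12, -0.09 and 0.18.

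The authors' deposited table of fold changes disagreed with the deposited pools for these assays. Its UT column matched the ratio of the UT to the CD pools for all 6 of these assays (log2 tolerance 0.0001). Its UL and WL columns matched their own pools in 0 of 6; they matched instead the mean of UT 2, UT 3 and UL 1 and the mean of UT 3, UL 1 and UL 2, in 6 of 6 each. In the authors' deposited table miR-10a-5p had 0.804 in the WL column where its own pools gave 1.57, and 1.40 in the UL column where its own pools gave 0.725. In 2 of 6 assays in the UL column and 4 of 6 in the WL column, the value lay on the other side of 1. The deposited ratios grow with Ct, so they run opposite to the log2 fold changes given above.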

How the data were processed

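The authors deposited threshold cycles (Ct) for each pool, and ratios normalized per pool with a table of their fold changes, per the file headers. Nothing on the PCR platform, assay chemistry or threshold rule was given in the sources used here. The deposited ratio equals 2 to a power that grows with Ct, opposite to its header, so Ct was used. A repeated assay was dropped, leaving 504 microRNAs and 2 reference RNAs, with 57 missing values left missing; the filter kept Ct under 35 in at least 3 pools.

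The relative level was fitted in R 4.3.3 by lmFit and eBayes of limma 3.58.1, over the 4 groups and 12 pools, two-sided, adjusted by Benjamini-Hochberg over 504 microRNAs at 0.05. Within-pool differences used exact permutation tests, and correlations 100000 permutations. The fit was tested on simulated data. Precision is limited by the number of pools; the median SE of a log2 fold change against CD was 0.53 for the 6 assays and 0.43 to 0.44 for all.

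All 6 assays are named, with the 3 microRNAs most like each of the 5 measured in all pools. The members and lists were chosen with earlier results of these data known. Same-numbered pools had r from -0.27 to 0.26 between their deviations over 18 pairs, and numbers were not used to pair them. Differently numbered pools were not compared, so whether a number links pools was not tested. With the number as a block, the WL value of miR-196a-1-3p was -0.06 in place of -0.49. Alternatives covered scaling, filters, weights, left-out pools and neighbouring assays.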

Additional observations from a re-analysis of the deposited data

How the results depend on the processing

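Under 27 other settings, 0 of the assays tested passed the limma threshold in any comparison, and the lowest adjusted p was 0.177; with the replicate block the count was also 0. The filter on Ct under 30 in every pool left 4 of the 6 assays and that on complete assays 5, and the F test was not run with only the groups compared. Of 477 recomputed log2 fold changes against CD, 453 kept their direction and 24, none of them called, turned. The cause was not tested. Settings that change only the filter, or leave out a pool of another group, can hardly move a value. The 453 are therefore not separate checks. With RNU-43 scaling, UT values turned to 0.085 for miR-10a-5p, 0.41 for miR-10b-5p and 0.093 for miR-196a-5p, and the UL value of miR-196a-5p to 0.30; the number of correlated pairs past the threshold went from 1 to 0. In WL, miR-10a-5p turned to 1.09 with U6 scaling, where WL 3 has no U6 value, and to 0.51 with array weights. For miR-196a-5p in UL, quantile normalization gave 0.023, neighbours in table order subtracted 0.22 and in accession order 0.081. Table order turned miR-196b-3p in WL to 0.066, and accession order turned miR-10a-5p in UL to -0.21, miR-196a-1-3p in WL to 0.31 and miR-196a-5p in WL to -0.0039.

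Leaving out 1 pool at a time, values ranged in WL from -0.70 to 0.85 for miR-10a-5p, -0.013 to 1.13 for miR-10b-5p, -0.27 to 0.44 for miR-196a-5p and -0.13 to 0.47 for miR-196b-5p. In UL they ranged from -0.14 to 0.38 for miR-10b-5p, -0.037 to 1.06 for miR-196a-1-3p and -0.33 to 0.26 for miR-196a-5p. The value of miR-196b-5p in UT did not turn under any of these settings.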
